A study of Mus musculus with 6 samples.

Results

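The proteins of the cytosolic ribosome are encoded by about as many genes as there are proteins in the particle, and 82 genes named for them were followed here among the 13454 genes of the deposited expression table. The members are all symbols that begin with Rpl or Rps and a digit, together with Rplp0, Rplp1, Rplp2 and Rpsa, at a mean of at least 1 CPM (counts scaled to the size of each library) over 6 libraries. Of 95 symbols with such a beginning, 3 pseudogene names ending in -ps and a number and 9 names of the Rps6k kinases were left out, and 82 of the remaining 83 reached 1 CPM. They comprised 45 genes of the large subunit, 31 of the small subunit and 6 whose names only resemble these or mark a paralogue. Those 6 were Rpl22l1, Rpl36al, Rpl7l1, Rps27l, Rps4y2 and Rps19bp1. Rps4y2 is an older symbol of Rps4l by RefSeq, which GENCODE annotates as a transcribed processed pseudogene, and Rps19bp1 encodes a protein named for binding Rps19 and is no subunit. Of 80 genes that encode subunits, 76 were members, 3 were tested under symbols outside the rule, among them Gnb2l1 (now Rack1), and Rpl26 was not analysed here. The rule used names and mean level only, but it was set with earlier results of these data known. The symbol just below the limit was Rpl39l, a paralogue of Rpl39, at a mean of 0.403 CPM, and those just above were Rpl28 at 1.039 and Rpl23a at 1.05.

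The RNA came from lymphatic endothelial cells of tumours grown from B16-OVA-VEGFC, a mouse melanoma line that by its name carries ovalbumin and the lymphatic growth factor VEGFC. The hosts either lacked Ch25h in lymphatic endothelium (genotype LEC-Ch25h KO, here Ch25h KO, 3 libraries) or were littermate controls (WT, 3 libraries). All hosts carried the same tumour line. Ch25h makes 25-hydroxycholesterol, an oxysterol that restrains sterol synthesis. Cells without CD45 and with CD31 and GP38 (podoplanin) were sorted, and 1 ng of total RNA was amplified with the SMART-Seq v4 kit, which does not mark strand. The promoter that drives recombination, the age and sex of the hosts, and whether libraries came from separate animals or pools are not stated. The p-values below measure spread among these 6 libraries, and that spread may be technical. Values are listed in the order of libraries 1, 2 and 3 of each genotype.

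Ribosomal protein mRNAs are among the most abundant messages of most cells. In mammals their transcripts typically begin at a C followed by a run of pyrimidines, the 5′ terminal oligopyrimidine (TOP) motif, through which mTORC1 and the binding protein LARP1 control their translation. Each gene is usually a single intron-containing locus, accompanied in the genome by many processed pseudogenes that copy its mRNA. When ribosome assembly falters, the RPL5 and RPL11 proteins bind MDM2 and so raise p53.

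Runs of C and T near the annotated starts were looked for in the reference promoters, and 4 are shown because their runs differ in length and place. Sequences are from RefSeq on GRCm38.p6, running from 40 bases before the annotated start to 20 bases from it onward, with the longest run of C or T that overlaps the stretch from 10 bases before to 15 bases after the start in capitals. They cover chr9:64173347-64173406 on the plus strand for Rpl4, chr7:3704001-3704060 on the plus strand for Rps9, chr9:66946046-66946105 on the plus strand for Rps27l and chr7:99483690-99483749 on the minus strand for Rps3.
Rpl4: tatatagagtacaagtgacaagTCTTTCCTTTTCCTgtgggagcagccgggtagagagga
Rps9: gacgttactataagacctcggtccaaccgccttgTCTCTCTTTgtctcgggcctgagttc
Rps27l: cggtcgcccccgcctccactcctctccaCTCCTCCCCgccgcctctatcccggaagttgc
Rps3: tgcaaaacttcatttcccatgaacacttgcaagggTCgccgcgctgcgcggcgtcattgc
The run measured 14 bases in Rpl4, 9 in Rps9, 9 in Rps27l and 2 in Rps3. It reached the annotated start only in Rps9 and ended before it in the other 3. A promoter entry matched 61 of the 82 members, and their median longest run was 7 bases, against 5 bases over all 32851 promoters of the table. Runs of 8 or more bases were found in 28 of the 61 members (45.9%) and in 15.4% of all promoters. The letters CTTTC on the strand of the transcript, searched in the 35 bases around the start, were found in 24.6% of members and 4.69% of all promoters, and on either strand in 29.5% and 8.82%. The letters CCGGAAG, a form of the ETS factor motif, were found on either strand of the 300-base promoters in 36.1% of members and 8.86% of all, and AAGATGG, a form of the YY1 motif, in 14.8% and 6.34%. No overlap between these motifs was removed. A match describes letters only.

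Ch25h itself separated the groups. Its level was 82.9, 88.8 and 106 CPM in WT and 0, 0.0232 and 2.95 CPM in Ch25h KO. The log2 difference was -5.87 ± 0.47 (SE, limma adjusted p = 0.00365), on the log2(CPM + 1) scale used for every difference below. That call was lost on the recovered reads with edgeR (log2 difference -6.54, adjusted p = 0.839) and DESeq2 (-6.53, adjusted p = 0.211), where the fitted difference was no smaller, and also with a pseudocount of 0.25 CPM, without WT library 1 and after scaling to the ribosomal protein genes. The listed genes took between 36556824 and 46165273 reads per library, so that 1 read was worth 0.0216 to 0.0268 CPM, and the least covered member value rested on 23 reads. The endothelial markers Pecam1 and Lyve1 were at a mean of 714 and 2909 CPM. Of 9 lymphatic markers 8 were listed, with Ccl21a not analysed here. No batch is named in the labels.

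No ribosomal protein gene differed between the genotypes by the test. With limma at a Benjamini-Hochberg adjusted p under 0.05, 0 of 82 members were called, against 1 of 11980 genes tested (0.00835%), which was Ch25h. At an unadjusted p under 0.05 the members gave 0 of 82, while 648 of all genes (5.41%) passed. The 3 Ch25h KO values lay wholly above or below the 3 WT values in 0 of 82 members, and in 1218 of all genes (10.2%, of which 4.38% upward and 5.78% downward). On the recovered read counts, the quasi-likelihood test of edgeR and DESeq2 both called 0 members, against 0 of 11980 and 17 of 13441 genes (0.126%), with 0 members at an unadjusted p under 0.05 in either.

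The sizes of the differences were small beside their errors. The median log2 difference, Ch25h KO minus WT, was 0.02 over the members and -0.0021 over all genes tested. It was above 0 for 49 members and below 0 for 33, and 49.6% of all genes lay above 0. In 74 of 82 members it lay between -0.25 and 0.25. The full range ran from -0.88 for Rps4y2 to 0.40 for Rpl9, and the median SE was 0.24. A 95% confidence interval stayed within a change of 1 log2 unit in 79 members, the exceptions being Rps4y2, Rpl9 and Rpl21. It stayed within a 1.5-fold change in 31. For the other 51 members these libraries leave a 1.5-fold difference inside the interval.

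**Figure D1:**
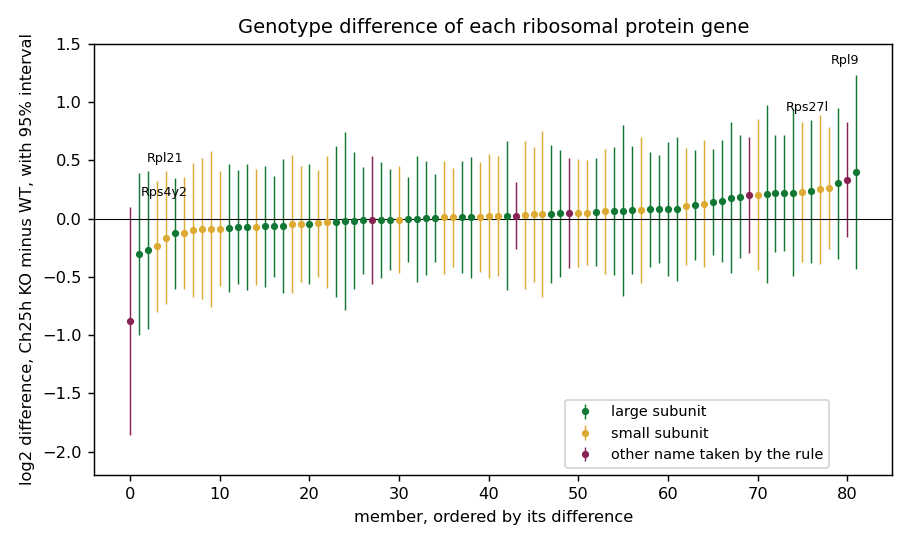
Log2 difference of each of the 82 members, Ch25h KO minus WT on the log2(CPM + 1) scale, with its 95% confidence interval from limma (n = 3 libraries a group), ordered by size and coloured by subunit. All 82 intervals include 0, and Rps4y2 at -0.88 lies apart from the rest.

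Split by subunit, the medians lay close to 0. The 45 large-subunit genes had a median log2 difference of 0.03, with 27 above and 18 below 0, and the 31 small-subunit genes had a median of 0.01, with 18 above and 13 below. Summed over all members the level was 8973, 5354 and 6278 CPM in WT and 7781, 6585 and 5834 CPM in Ch25h KO. The group means were 6868 ± 1880 and 6733 ± 982 CPM (SD, n = 3), a ratio of 0.9803, and the Ch25h KO values lay within the WT range. The members took 0.538% to 0.892% of the listed CPM. The ratio of summed large-subunit to summed small-subunit CPM stayed between 0.999 and 1.09 in the 6 libraries.

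The members varied far more between libraries of the same genotype, and they did so together. WT library 1 held the highest value of 63 of 82 members (76.8%), and WT library 2 the lowest value of 63 (76.8%). Over all genes tested those shares were 20.0% and 17.6%. Both held at once for 52 members. WT library 1 was above WT library 2 in 81 members, with Rpl10 as the exception, and Ch25h KO library 1 was above Ch25h KO library 3 in all 82. Relative to each gene's own mean over the 6 libraries, the members' median log2 level was 0.41, -0.34 and -0.11 in WT, and 0.23, -0.03 and -0.19 in Ch25h KO. The high and the low libraries thus came from both genotypes, and the lowest and the highest were both WT. The median residual SD of the members within groups was 0.33 log2 units. A different SD, over all 6 libraries without regard to genotype, had a median of 0.10 after each library's median shift was subtracted. That shift was the median of these same members, so some fall in SD is built in, and the SDs cannot be compared directly.

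**Figure D2:**
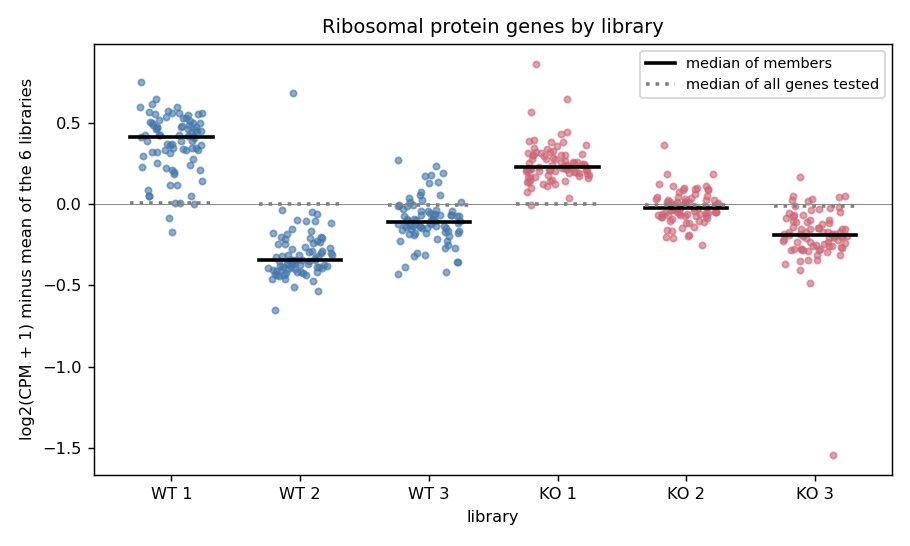
Log2(CPM + 1) of each of the 82 members minus its own mean over the 6 libraries, by library, with points for genes, a solid line for the members' median and a dotted line for the median of all 11980 genes tested. The members lie high in WT 1 (median 0.41) and KO 1 (0.23) and low in WT 2 (-0.34), while the median of all genes stays near 0 in every library.

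The shift can be read in single genes of high level. Rps3, a small-subunit protein at the mRNA entry channel, was at 957, 558 and 668 CPM in WT and 785, 677 and 616 CPM in Ch25h KO. Rpl8, a core protein of the large subunit, was at 632, 357 and 420 CPM in WT and 536, 449 and 403 CPM in Ch25h KO. In both genes the Ch25h KO values lay inside the WT range, and the log2 differences were -0.04 ± 0.20 and 0.01 ± 0.21 (SE, limma adjusted p = 0.993 and 1.00). Rpl4, another core protein of the large subunit, was at 804, 612 and 655 CPM in WT and 800, 698 and 585 CPM in Ch25h KO. Gnb2l1, whose product RACK1 sits on the small subunit and which the naming rule does not reach, was at 726, 450 and 470 CPM in WT and 652, 522 and 462 CPM in Ch25h KO. It showed the same order of libraries at the top and bottom of WT.

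The stalk proteins recruit translation factors to the large subunit, and library 1 was the highest of each genotype for all 3. Rplp0, their anchor, was at 380, 286 and 328 CPM in WT and 382, 325 and 284 CPM in Ch25h KO. Rplp1 was at 210, 105 and 127 CPM in WT and 157, 143 and 128 CPM in Ch25h KO. Rplp2 was at 135, 73.4 and 81.4 CPM in WT and 106, 91.1 and 75.9 CPM in Ch25h KO. The genotypes overlapped, and the log2 differences lay between -0.05 and 0.01.

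Rps6, the classical substrate of the S6 kinases, was at 12.2, 7.01 and 8.58 CPM in WT and 11.1, 9.05 and 9.91 CPM in Ch25h KO. Rpsa, which is also known as a laminin receptor, was at 15.7, 8.63 and 8.94 CPM in WT and 11.8, 10.5 and 8.14 CPM in Ch25h KO. Rps19, the gene most often mutated in Diamond-Blackfan anaemia in humans, was at 122, 72.2 and 95.2 CPM in WT and 117, 93.3 and 85.2 CPM in Ch25h KO. The genotypes overlapped in all 3, with log2 differences of 0.13 ± 0.24, -0.09 ± 0.27 and 0.05 ± 0.20 (SE, limma adjusted p = 0.981, 0.989 and 0.989).

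Other genes shared the library shift. The 76 mitochondrial ribosomal protein genes had median deviations of 0.25, -0.24 and -0.17 in WT and 0.24, -0.01 and -0.08 in Ch25h KO. For 15 elongation factors and other TOP mRNAs they were 0.27, -0.27 and -0.11 in WT and 0.18, -0.04 and -0.09 in Ch25h KO. In WT libraries 1 and 2, 82 ribosome biogenesis genes had only 0.04 and -0.05. There, 21 genes of mTORC1, LARP1 and MYC control had 0.04 and 0.05. Among other genes, the 449 with a transcript of at most 800 bases had median deviations of 0.28, -0.30 and -0.15 in WT and 0.26, -0.02 and -0.08 in Ch25h KO. The 2033 other genes with a transcript over 5000 bases had -0.04, 0.16 and 0.07 in WT and -0.15, -0.03 and 0.00 in Ch25h KO. The members' transcripts had a median length of 777.5 bases, against 2837 for other genes. The 6 members over 1500 and up to 3000 bases had 0.34, -0.20 and -0.12 in WT, while the 4309 other genes of that length had 0.01, -0.03 and -0.03. Markers of other cells also differed between libraries. Summed over 7 melanoma markers the level was 199, 63.7 and 40.9 CPM in WT and 250, 153 and 101 CPM in Ch25h KO. Over 9 leukocyte markers it was 331, 26.3 and 166 CPM in WT and 36.2, 148 and 75.8 CPM in Ch25h KO, with Ptprc and Csf1r at 0 in some libraries and Cd3e and Cd8a not analysed here. Over 5 fibroblast markers it was 352, 66.8 and 258 CPM in WT and 76.6, 137 and 200 CPM in Ch25h KO. The 8 lymphatic markers ran the other way in sum. Their total was 7499, 9870 and 8727 CPM in WT and 6778, 9309 and 9044 CPM in Ch25h KO, lowest in library 1 of each. Single markers went both ways in WT. Prox1 (243, 558 and 552 CPM) and Flt4 (1442, 1993 and 1780 CPM) were lowest in WT library 1. Lyve1 (2771, 2732 and 2280 CPM) and Pdpn (192, 170 and 177 CPM) were highest there. The part of any of these in the members' shift was not tested. In sorted bulk samples, fewer cells of a type and less RNA per cell cannot be told apart.

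**Figure D3:**
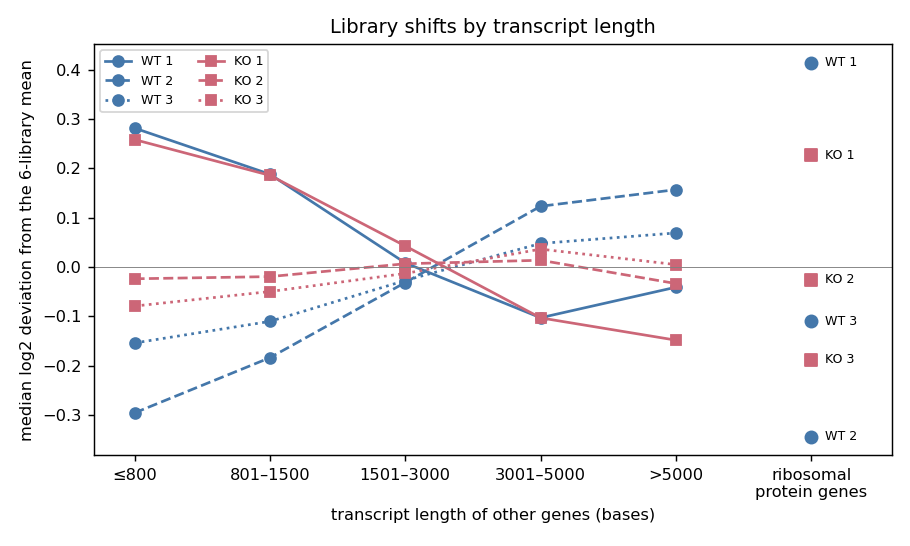
Median log2 deviation from the 6-library mean of other genes binned by transcript length, and of the ribosomal protein genes at the right, with a line for each library. Among genes of at most 800 bases WT 1 (0.28) and KO 1 (0.26) were high and WT 2 (-0.30) was low, and among those over 5000 bases WT 2 (0.16) was the highest.

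Per kilobase of transcript, the level of members differed over a wide range, although most of these proteins are present in a single copy per ribosome. Among the highest were Rpl8 at 548, Rps14 at 519 and Rpl4 at 450 CPM per kilobase, means over the 6 libraries. Rpl8 lay between 419 and 743 CPM per kilobase, and Rps14, a protein of the small-subunit platform, between 389 and 718. These neighbours in the order overlapped in their spread over libraries. The lowest were Rpl28 at 0.939, Rpl5 at 1.54, Rpl23a at 1.88, Rpl24 at 2.78 and Rpl11 at 3.06 CPM per kilobase. In all, 20 members were above 100 and 22 below 10 CPM per kilobase, and the 10 members of highest mean CPM took 58.3% of all member CPM.

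The level went with how much of a member's mRNA is found nowhere else among annotated transcripts. Of the 50-base windows of each member's representative transcript, a median of 44.97% occurred in no transcript of another gene, with a range from 1.35% for Rps27 to 100%, as for Rps19bp1. A window was shared with at least 1 annotated pseudogene in 80 of 82 members, with a median of 8 pseudogenes and a maximum of 120. The 23 members with under 25% of such unique windows had a median level of 7.87 CPM per kilobase, the 32 with 25 to 60% had 39.4, and the 27 with 60% or more had 97.9. Spearman's rho between the unique share and CPM per kilobase was 0.548 over the 82 genes, which share the same libraries and are not independent. The 76 mitochondrial ribosomal protein genes, whose median unique share was 96.4%, had a median of 37.2 CPM per kilobase. The sources used here do not say how reads that fit several places were counted, and what part this has in the levels was not tested. A level below its neighbours is thus uncertain for a member whose sequence is mostly shared. The representative transcripts of Rps15a and Rps20 are long, at 5130 and 3706 bases, which lowers their values per kilobase. Those of Rpl5 and Rps3 have 2045 and 1908 bases for 894 and 732 coding bases, so their values per kilobase also depend on the transcript chosen.

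The beginnings of 3 coding sequences show the contrast. They are the first 120 coding bases in GENCODE release M21 on GRCm38, and capitals mark bases covered by a 50-base window that also occurs in another annotated gene.
Rps3: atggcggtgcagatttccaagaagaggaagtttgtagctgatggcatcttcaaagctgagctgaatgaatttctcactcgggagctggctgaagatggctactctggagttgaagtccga
Rps12: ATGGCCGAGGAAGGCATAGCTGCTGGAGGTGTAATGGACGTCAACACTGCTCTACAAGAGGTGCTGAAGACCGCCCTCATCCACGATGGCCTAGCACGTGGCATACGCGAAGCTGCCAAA
Rpl5: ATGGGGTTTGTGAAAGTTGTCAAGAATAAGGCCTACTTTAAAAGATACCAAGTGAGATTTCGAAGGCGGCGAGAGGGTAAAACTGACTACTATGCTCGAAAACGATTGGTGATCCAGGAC
None of these bases of Rps3, on chromosome 7, was covered (27.6% of its whole coding sequence was), and all 120 were covered in Rps12, on chromosome 10, and in Rpl5, on chromosome 5. Rps3 stood at 372 CPM per kilobase, Rps12 at 4.08 and Rpl5 at 1.54.

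**Figure D4:**
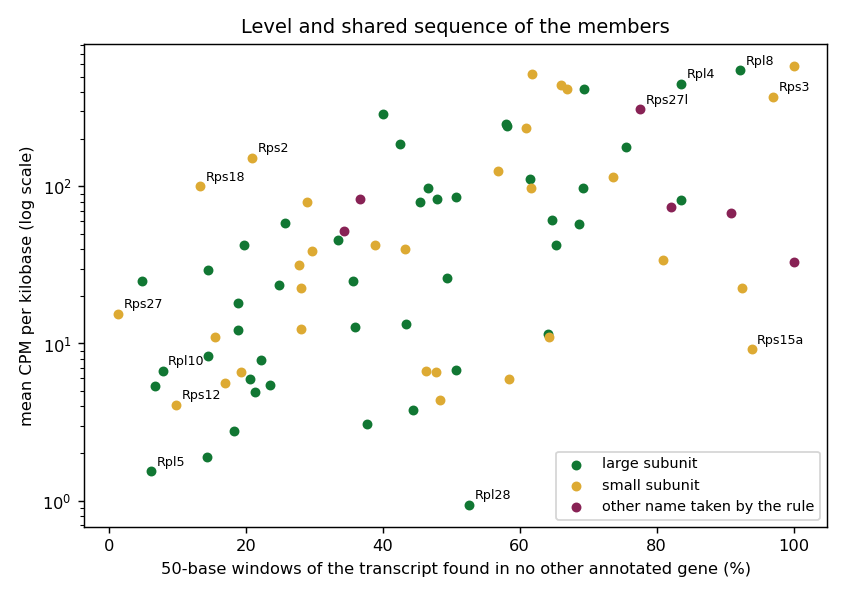
Mean level over the 6 libraries in CPM per kilobase (log scale) against the percent of 50-base windows of the representative transcript found in no other annotated gene, with a point for each of the 82 members. Members with few unique windows such as Rpl5 and Rps12 lie low and Rpl8, Rps3 and Rpl4 lie high, with exceptions such as Rps18 and Rps2 above and Rpl28 and Rps15a below the trend.

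Rpl5 and Rpl11, which form the 5S particle with the 5S rRNA, both lay among the 10 lowest members per kilobase. Rpl5 was at 2.87, 2.81 and 2.66 CPM in WT and 3.73, 4.27 and 2.52 CPM in Ch25h KO. It did not follow the shared order, with its highest value in Ch25h KO library 2, and its log2 difference was 0.23 ± 0.27 (SE, limma adjusted p = 0.973). Exons of other genes cover 46.6% of its transcript. Rpl11 was at 2.65, 2.07 and 2.59 CPM in WT and 3.22, 2.51 and 2.24 CPM in Ch25h KO, a log2 difference of 0.08 ± 0.28 (adjusted p = 0.989).

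The paralogue pairs allowed a look at genes of related name but distinct loci, which need not share a function. Rps27 and Rps27l encode nearly the same zinc-finger protein of the small subunit, and Rps27l is a known p53 target. Rps27 lies at chr3:90212522-90213651 on the minus strand and Rps27l at chr9:66946086-66949516 on the plus strand (GRCm38). Their coding sequences, from GENCODE M21, are both 255 bases long, and capitals mark the bases at which they differ.
Rps27: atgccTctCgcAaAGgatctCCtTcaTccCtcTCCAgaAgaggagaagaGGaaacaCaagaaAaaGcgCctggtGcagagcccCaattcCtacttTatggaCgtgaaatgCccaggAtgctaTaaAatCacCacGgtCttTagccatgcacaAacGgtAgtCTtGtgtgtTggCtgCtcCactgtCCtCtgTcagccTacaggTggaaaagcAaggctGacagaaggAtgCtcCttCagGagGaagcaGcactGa
Rps27l: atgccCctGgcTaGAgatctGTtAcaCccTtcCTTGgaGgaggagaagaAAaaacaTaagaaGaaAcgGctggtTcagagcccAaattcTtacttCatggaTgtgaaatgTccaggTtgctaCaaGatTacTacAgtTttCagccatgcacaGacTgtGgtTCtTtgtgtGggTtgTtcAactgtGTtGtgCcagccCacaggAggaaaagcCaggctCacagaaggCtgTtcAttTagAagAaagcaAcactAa
They differ at 61 bases, an identity of 76.1%, and the longest identical run is 11 bases, so that no 50-base coding window is common to both. Per kilobase Rps27l stood at 311 CPM and Rps27 at 15.4 CPM. Of the windows of Rps27 only 1.35% were unique, shared with 8 pseudogenes, against 77.6% of those of Rps27l.

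Rps27l was the member of smallest p among those with a higher mean in Ch25h KO. It was at 194, 106 and 118 CPM in WT and 195, 162 and 154 CPM in Ch25h KO. WT library 1 reached the Ch25h KO range and the other WT libraries lay below it. The log2 difference was 0.34 ± 0.22 (SE, limma p = 0.161, adjusted p = 0.973; exact permutation p = 0.3, two-sided, where 3 against 3 cannot go below 0.1). The difference ranged from 0.16 without WT library 2 to 0.60 without WT library 1, where the unadjusted p was below 0.05 with no call and 78 of 82 members lay above 0. Rps27 was at 5.30, 4.29 and 6.11 CPM in WT and 6.79, 4.43 and 5.04 CPM in Ch25h KO, a log2 difference of 0.04 ± 0.26 (adjusted p = 0.997).

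Of other pairs, Rpl22 was at 179 CPM per kilobase and its paralogue Rpl22l1 at 51.8, with log2 differences of -0.07 ± 0.22 and -0.01 ± 0.25. Rpl36a, on the X chromosome, was at 8.29 CPM per kilobase and Rpl36al, on chromosome 12, at 83.5, with log2 differences of 0.18 ± 0.29 and 0.20 ± 0.22. Their 321 coding bases differ at 39 places, and 14.5% of windows were unique in Rpl36a against 36.7% in Rpl36al. Rpl7 was at 97.1 CPM per kilobase and Rpl7l1 at 67.3. Rpl7l1 had the narrowest spread of all members, at 190, 163 and 168 CPM in WT and 180, 184 and 166 CPM in Ch25h KO. Its highest value was 1.16 times its lowest, against a median of 1.80 over the members. Rpl39 was at 82.3 CPM per kilobase, and its paralogue Rpl39l was at 0.635, 0 and 1.43 CPM in WT and 0.0805, 0 and 0.277 CPM in Ch25h KO, at or under a few reads in some libraries of both groups. None of these paralogues that was tested passed the test.

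Rps4y2 departed most from the other members. This annotated pseudogene (chr6:148354656-148355598, plus strand, GRCm38) was at 87.5, 83.6 and 47.2 CPM in WT and 68.0, 45.8 and 17.0 CPM in Ch25h KO. WT library 2, the lowest for most members, was high here, and Ch25h KO library 3 stood well below the rest. The log2 difference was -0.88 ± 0.44 (SE, limma p = 0.0731, adjusted p = 0.941, the smallest of any member; exact permutation p = 0.2, two-sided). With library weights it was -0.46, and leaving out a library moved it between -0.32 (Ch25h KO library 3 dropped) and -1.29 (Ch25h KO library 1 dropped). Of its 50-base windows 82.0% were unique. Rps4x, on the X chromosome, the source of the subunit protein, was at 45.7, 22.6 and 28.3 CPM in WT and 34.4, 28.2 and 24.4 CPM in Ch25h KO, and so followed the shared order.

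Rpl9 had the largest positive difference and little depth behind it. It was at 4.69, 1.98 and 3.003 CPM in WT and 7.54, 3.74 and 2.85 CPM in Ch25h KO, a log2 difference of 0.40 ± 0.37 (SE, limma adjusted p = 0.973, exact permutation p = 0.5). Ch25h KO library 1 set the higher mean. The other members of smallest p with a higher mean in Ch25h KO were Rps27a, which encodes ubiquitin fused to a small-subunit protein, Rpl36 and Rpl34, with log2 differences of 0.26 ± 0.23, 0.30 ± 0.29 and 0.22 ± 0.22. Those with a lower mean were Rpl21, Rps20, Rpl24 and Rps15a, with -0.30 ± 0.31, -0.24 ± 0.25, -0.27 ± 0.30 and -0.16 ± 0.26. None had an adjusted p below 0.973. Rps20 was at 123, 59.5 and 92.4 CPM in WT and 88.0, 76.5 and 60.9 CPM in Ch25h KO, and the Ch25h KO values lay within the WT range.

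The largest spread within groups among members of at least 5 CPM was found for Rps4y2, Rpl12, Rpl27a and Rpl37. Rpl12, of the stalk base, was at 11.8, 5.58 and 6.07 CPM in WT and 13.2, 8.26 and 6.0003 CPM in Ch25h KO. Rpl27a was at 20.7, 9.94 and 10.5 CPM in WT and 15.5, 11.2 and 11.9 CPM in Ch25h KO. Rpl37 was at 69.8, 33.5 and 44.7 CPM in WT and 58.1, 45.03 and 38.6 CPM in Ch25h KO. In these 3 subunit genes WT library 1 lay far above the other WT libraries. Rpl10, which is needed for the subunits to join and is the member with WT library 1 below WT library 2, was at 4.64, 5.08 and 5.099 CPM in WT and 6.79, 5.06 and 5.57 CPM in Ch25h KO, with 7.87% of its windows unique. Rpl41, the shortest ribosomal protein, was at 170, 99.2 and 120 CPM in WT and 160, 143 and 119 CPM in Ch25h KO, and Rps19bp1 at 35.3, 21.7 and 25.1 CPM in WT and 31.95, 26.5 and 25.1 CPM in Ch25h KO.

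**Figure D5:**
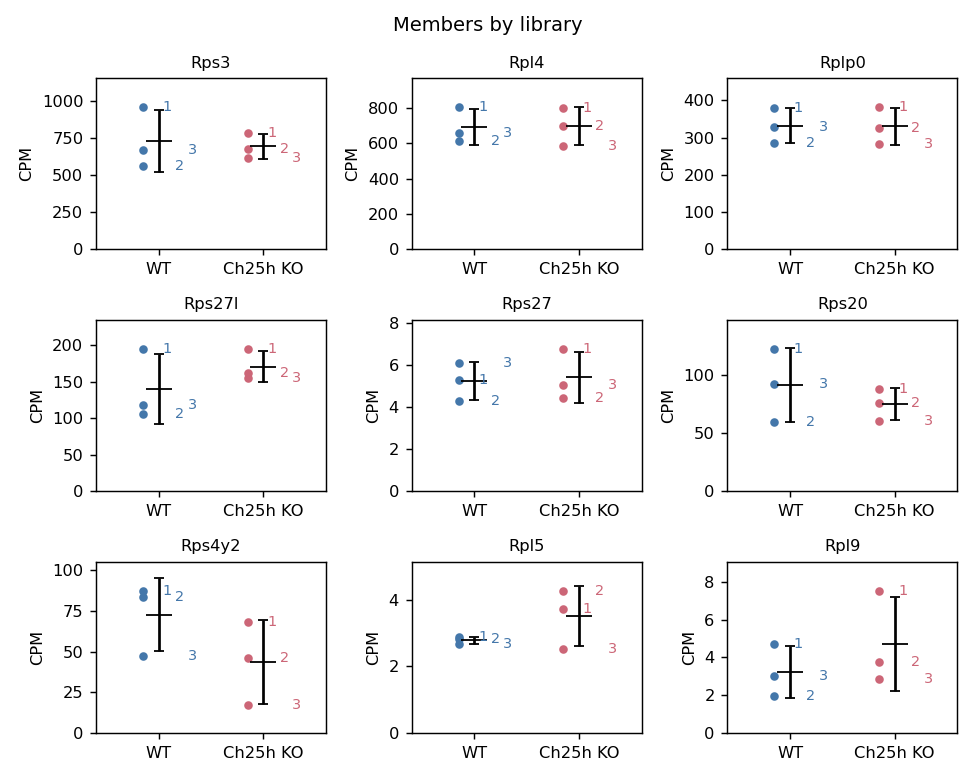
CPM of 9 members in each library, with points numbered by library, a bar for the group mean and whiskers for 1 SD (n = 3). The groups overlap in all 9, WT 1 is the highest WT library in all but Rps27, and Rps4y2 is lowest in KO 3 at 17.0 CPM.

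Genes that make, run and control the ribosome were set beside the members. No gene of these lists was called. The 76 mitochondrial ribosomal protein genes, which serve the separate ribosome of mitochondria, had a median log2 difference of 0.11 with 65 above and 11 below 0. Mrpl50, of the smallest p among them, was at 46.0, 50.4 and 44.7 CPM in WT and 65.8, 63.1 and 60.8 CPM in Ch25h KO, a log2 difference of 0.42 ± 0.14 (SE, limma adjusted p = 0.836), and the groups did not overlap. A choice by p favours such genes, and 4.38% of all genes also lay wholly higher in Ch25h KO. In Mrpl28, the next by p, the groups overlapped, with a log2 difference of 0.27 ± 0.15 (SE, limma adjusted p = 0.955). The 82 ribosome biogenesis genes had a median of 0.09 with 63 above and 19 below 0, and the 20 RNA polymerase I genes 0.07 with 13 and 7. The 449 other genes with transcripts of at most 800 bases had a median of 0.12 with 320 above and 129 below. The 1573 over 800 and up to 1500 bases had 0.08 with 1030 and 543. The 4309 over 1500 and up to 3000 bases had 0.03 with 2436 and 1873. Medians were -0.04 over 3000 and up to 5000 bases, and -0.11 over 5000 bases. All genes had a median of -0.0021. The lists were not matched by length to these groups, and Mrpl50 has a transcript of 2114 bases.

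Genes of translation and its control followed. The 33 initiation genes had a median log2 difference of 0.04 with 24 above and 9 below 0, and 15 elongation factors and other TOP mRNAs 0.08 with 10 and 5. Eef2, the translocase of elongation and itself a TOP mRNA, was at 1390, 869 and 1173 CPM in WT and 967, 992 and 905 CPM in Ch25h KO, a log2 difference of -0.24 ± 0.19 (SE, limma adjusted p = 0.973). The 21 genes of mTORC1, LARP1 and MYC control had a median of 0.00, with 11 above and 10 below. The 19 genes of the p53 response had 0.06, with 11 and 8. In that list Phlda3, which restrains AKT, was at 96.4, 87.8 and 91.3 CPM in WT and 146, 112 and 156 CPM in Ch25h KO, a log2 difference of 0.57 ± 0.15 (adjusted p = 0.836). Bax, which promotes apoptosis, was at 329, 256 and 245 CPM in WT and 412, 339 and 363 CPM in Ch25h KO, a log2 difference of 0.43 ± 0.16 (adjusted p = 0.836). These 2 were named for having the smallest p in the list, a choice that favours groups that do not overlap. In both, every Ch25h KO library was above every WT library. That held for 4.38% of all genes in that direction, a share over genes not picked by p.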

How the data were processed

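Groups follow the genotype labels and library numbers the sample titles, where Ch25h KO libraries carry the unexplained letters HE. The submitters' processing notes name the mm10 assembly with edgeR 3.26.8, HTSeq 0.9.1 and STAR 2.7.0. The deposited signal, a table the authors call normalized CPM, gave whole reads for 100% of values (within 0.01 of a read) once divided by each column's smallest value above 0, and its scaling equals edgeR's TMM factors (0.967 to 1.02) on those recovered reads.

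limma 3.58.1 (R 4.3.3) was fitted with group as the only term on log2(CPM + 1), with a trended prior, for 11980 genes whose mean reached 1 CPM, and p-values were adjusted by Benjamini-Hochberg (threshold 0.05). This scale understates changes of low genes. edgeR 4.0.16 called 0 of 11980 genes and DESeq2 1.42.0 called 17 of 13441 on the recovered reads. Tests were checked on simulated data.

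Positions, lengths and 50-base windows (either strand) come from GENCODE M21 on GRCm38, the same assembly as mm10. The representative transcript was chosen by CCDS, APPRIS and support level, then the longest coding sequence. Named genes are mainly the members of highest level and of largest spread, those of smallest p in each direction, and those nearest the 1 CPM limit. Others are members picked by role and the 2 genes of smallest p in each related list. Members and lists were chosen with earlier results of these data known. Exons of 16 members overlap another gene's, and reads there cannot be told apart without strand. Alternatives changed the pseudocount, filter, scaling, prior, weights, tool, block and libraries. A few members and partner genes are counted in the totals but not reported here by name.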

Additional observations from a re-analysis of the deposited data

How the results depend on the processing

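The count of ribosomal protein genes called was 0 under all 18 alternatives, and the lowest adjusted p of any member in them was 0.206. The count of all genes called was 0 with a pseudocount of 0.25 CPM and 0 with edgeR, 17 with DESeq2, and 0 to 2 when a library was left out (0 without WT library 1, 2 without WT library 2). The members' median log2 difference ranged from 0.0049 to 0.10 under other pseudocounts, filters, scalings, weights and tools. It ranged from -0.15 (without WT library 2, 18 of 82 members above 0) to 0.23 (without WT library 1, 78 of 82 above 0) when a library was left out, and was also below 0 when WT library 3 (-0.02) or Ch25h KO library 1 (-0.09) was dropped. Relative to genes of like transcript length, an alternative chosen after seeing the data, it was -0.07, with 26 of 82 above 0. Each of these lay within the SD of 0.312 between libraries. The ratio of summed CPM ranged from 0.883 to 1.16 when a library was left out. Of 42 named members, 29 changed the sign of their difference under at least 1 alternative. Members of low level rest on few reads, down to 23 in a library.

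The labels do not say whether the library numbers mark pairs. Deviations of same-numbered libraries correlated at 0.238, -0.062 and -0.101, and those of differently numbered libraries at -0.16 to 0.268. Such correlations cannot show how the samples were collected. With the number as a replicate block 0 members and 1 of all genes were called.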

Other observations

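Rn45s, the precursor of the ribosomal RNAs, was also listed. Reads of the precursor and of the mature ribosomal RNAs cut from it were not separated, so its level is no measure of the precursor alone. Rn45s was at 16352, 8022 and 9785 CPM in WT and 8025, 8772 and 6587 CPM in Ch25h KO. Its log2 difference was -0.49 ± 0.29 (SE, limma adjusted p = 0.962), and WT library 1, the highest for most ribosomal protein genes, was the highest here too, while Ch25h KO library 1 was not raised.

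Of the 3 pseudogene symbols left out by name, Rps15a-ps4 was at 2.19, 1.05 and 1.84 CPM in WT and 1.80, 1.44 and 0.908 CPM in Ch25h KO, the order of libraries seen for Rps15a at its top and for WT library 2 near its bottom. Rps19-ps3 and Rps15a-ps6 had means of 0.489 and 0.369 CPM.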
